A study of Oryza sativa with 6 samples.

Results

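In the basal shoot of rice, 36 genes outside a stretch of chromosome 11 were read wholly or almost wholly in 1 of 2 genotypes. Of these, 26 were read in pine1 and 10 in wild type. They were picked from 27397 genes by their means of normalized reads, at most 1 in one genotype and at least 15 in the other, and loci from Os11g0220000 to Os11g0245000, where 6 more genes met those limits, were set aside. Because the means chose these single-genotype genes, their levels and directions are given as a description with no test. The measurements that the choice did not use are their annotation, their place among other loci and the behaviour of the loci beside them. In short, most had no named function, and they lay scattered over 11 of 12 chromosomes. Of the nearest loci, 13.8% differed between the genotypes, against 6.32% of all other tested genes. The share was 8.20% near other genes that differed at least 2-fold, and 17 of the 36 had no differing locus among the nearest.

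The tested plants were the pine1 knockout line pine1-1a, in the Nipponbare background, and the plants they were set against were wild-type Nipponbare, a japonica rice. RNA was sequenced from 3 samples of each, and a sample is a pool of 8 plants, from each of which the lowest 1 cm or so was taken. The plants had grown in 16 h days and were 20 days past germination. The piece holds the stem and the shoot apex. The kind of pine1 allele and the number of lines behind it are unknown here, and no separate sowings are named, so p-values reflect only how these pools varied, which may be technical.

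Each library gave between 27918842 and 36250239 reads on genes. In a principal component analysis, 59.9% of the variance fell on the leading axis. The positions of the libraries along that axis are not given, so no separation of the genotypes is read from it. PINE1 (Os12g0617000), the targeted gene, had 5199, 5044 and 4173 normalized reads in pine1 and 3569, 3674 and 2943 in wild type, so its RNA level does not check the labels, and pine1 here means the libraries so labelled. Of 5 loci chosen as stem and apex markers, all were read in every library, 3 were higher in pine1 and 2 were not called. The KNOX homeobox gene OSH1 had 761 to 1033 normalized reads in pine1 and 281 to 441 in wild type, OSH15 had 1440 to 1880 in pine1 and 648 to 873 in wild type, and OSH6 had 350 to 405 in pine1 and 169 to 271 in wild type. Of those not called, Os05g0129700 had 835 to 1085 in pine1 and 837 to 1090 in wild type, and Os03g0771500 had 45.4 to 72.8 in pine1 and 61.5 to 102 in wild type. A root marker locus (Os02g0662000) had 88.9 to 297 in pine1 and 355 to 589 in wild type, a difference that was not called. The leaf gene CAB2R had 29129 to 35419 in pine1 and 21398 to 24078 in wild type, and was called higher in pine1. Another leaf locus, Os12g0274700, had 118 to 168 in pine1 and 107 to 117 in wild type and was not called. The part of such tissue differences in the results was not tested. The samples are bulk tissue, so fewer cells of a type and less RNA per cell cannot be told apart.

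Rice locus identifiers carry the chromosome number and rise along the chromosome, so they give the order of genes but not the distance between them. A locus can also overlap its neighbour, and no source here states whether strand was kept, so reads of overlapping genes cannot be told apart. Several single-genotype genes belong to classes that plants handle in special ways. Mobile elements such as the En/Spm (CACTA) family are usually kept silent by DNA methylation, and Argonaute proteins carry the small RNAs that guide such silencing. Genes for NB-ARC immune receptors, receptor-like kinases and F-box proteins form large families that are often arranged in clusters.

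The strongest gene read in pine1 was Os06g0271500, described as an En/Spm-like transposon gene. It had 6813, 6741 and 6564 normalized reads in the pine1 libraries and 0 reads in each wild type library. The second, Os03g0115800, a conserved hypothetical protein gene, had 5102, 4824 and 4335 in pine1 and 0 in wild type. Both were high in all 3 pine1 libraries, and both lie far above the third of the 26. That gene, Os02g0496300, also conserved hypothetical, had 952, 1038 and 1082 in pine1 and 0 in wild type. A library with 0 reads allows up to 3, which corresponds to between 2.56 and 3.38 normalized reads, a limit that covers counting error only. Measured against that floor in every wild type library, Os02g0496300 was at least 352-fold higher in pine1.

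Levels then fell off gradually across the 26 genes read in pine1. Their mean ran from 15.5 to 6706 normalized reads with a median of 95.4, and 13 of the 26 averaged at least 100. Os12g0632401, a hypothetical conserved gene, had 485, 507 and 480.5 normalized reads in pine1 and 0 in wild type. Os04g0172560, a hypothetical gene, had 489, 509 and 442 in pine1 and 0 in wild type. These 2 were at least 169-fold and at least 165-fold higher in pine1. The non-coding transcript Os08g0340700 had 311, 334 and 348.5 in pine1 and 0 in wild type, and the hypothetical protein gene Os04g0355401 had 225, 252 and 271 in pine1 and 0 in wild type. In these 4 genes the highest pine1 library was between 1.06 and 1.20 times the lowest.

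A further 3 genes above 150 normalized reads were more uneven. Os06g0637800, a hypothetical gene, had 187, 272 and 192 in pine1 and 0 in wild type, and Os04g0510000, known by a clone name only, had 245, 151 and 179 in pine1 and 0 in wild type. Os01g0974600, similar to histone H2A, a protein of the nucleosome core, had 155, 179.9 and 143 in pine1, and 1.09, 0 and 0 in wild type. The read ratio of 499 rests on that single wild type read and on the values that chose the gene, so it is a rough description. Histone genes are near-identical copies of one another, so how the authors' counting divided reads among them is uncertain.

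Other pine1 genes with a described product were read at lower levels. OsAGO14 (Os07g0188000), similar to Argonaute 4, had 24.2, 24.3 and 21.4 normalized reads in pine1, and 1.09, 0.961 and 0.855 in wild type, which is 1 read in each wild type library. It was the only one of the 36 with a read in every library of the low genotype. Its read ratio of 24.3 rests on those few reads, which also chose the gene, so it too is a rough description. Os08g0124100, described as a lectin domain gene and in the MSU annotation as a lectin-like receptor kinase, had 86.0, 78.8 and 91.4 in pine1 and 0 in wild type. In both genes the 3 pine1 libraries lay close together and above all wild type libraries. A gene listed by MSU as the wall-associated receptor kinase OsWAK60 (Os04g0370900) had 30.9, 6.06 and 10.2 in pine1, and 0, 0 and 0.855 in wild type. Os12g0117700, similar to an RNA-binding protein, had 17.4, 38.4 and 97.0 in pine1 and 0 in wild type. In those last 2 genes the highest pine1 library stood 5.10 and 5.58 times above the lowest.

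The remaining 12 genes read in pine1 are a non-coding or hypothetical group with means from 15.5 to 135. The upper ones were Os12g0455100, with 126, 161 and 119.6 normalized reads in pine1, and Os01g0309451, with 125, 157 and 91.4 in pine1, both at 0 in wild type. Os11g0515700, a non-coding transcript, had 56.0, 130.4 and 129.7 in pine1 and 0 in wild type. Os07g0560400 had 81.2, 46.5 and 55.3 in pine1 and 0 in wild type. Os06g0700750 had 62.8, 60.6 and 40.6 in pine1, and 2.18, 0 and 0 in wild type. The non-coding transcript Os06g0234700 had 55.1, 36.4 and 19.2 in pine1, and 0, 0.961 and 0.855 in wild type. Pine1 was above wild type in every library of each. Os04g0483450 averaged 41.7 ± 4.43, Os07g0609550 30.2 ± 2.77, Os04g0397800 16.0 ± 6.36 and Os08g0207300 15.5 ± 5.10 normalized reads in pine1 (SD, n = 3), all at 0 in wild type. The other two, on chromosome 2, are taken up with the pairs.

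Os07g0442800, a conserved hypothetical protein gene, was the strongest of the 10 genes read in wild type. It had 0 reads in each pine1 library and 1434, 1671 and 1676 normalized reads in wild type. OsFbox607 (Os11g0539600), listed by MSU as an F-box gene, whose products choose proteins for degradation, had 0 in pine1 and 364, 359 and 331 in wild type. Os11g0491600, listed by MSU as an NB-ARC immune receptor gene, had 0, 2.02 and 0 in pine1, and 218, 173 and 221 in wild type. In these 3 genes every wild type library was far above every pine1 library. Os04g0668200, a hypothetical protein gene, had 0 in pine1 and 93.9, 87.5 and 82.9 in wild type. Os11g0118000, an alpha/beta hydrolase fold gene that MSU lists as an esterase, had 0 in pine1 and 22.9, 31.7 and 26.5 in wild type. Os02g0538550 had 0 in pine1 and 25.1, 29.8 and 26.5 in wild type.

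The other wild type genes were weak or rested on few libraries. Os05g0438201 had 0 normalized reads in pine1 and 26.2, 16.3 and 125 in wild type, so wild type replicate 3 held most of its signal. Os09g0273600 had 0 in pine1 and 12.01, 18.3 and 31.6 in wild type. Os01g0698800, which the authors' deposited table does not list, had 0.966, 0 and 1.13 in pine1, and 0, 62.5 and 1.71 in wild type. It met the mean limits through wild type replicate 2 alone. Across the 10 genes the mean in wild type ran from 15.9 to 1594 normalized reads with a median of 41.5, and 3 of them averaged at least 100.

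**Figure D1:**
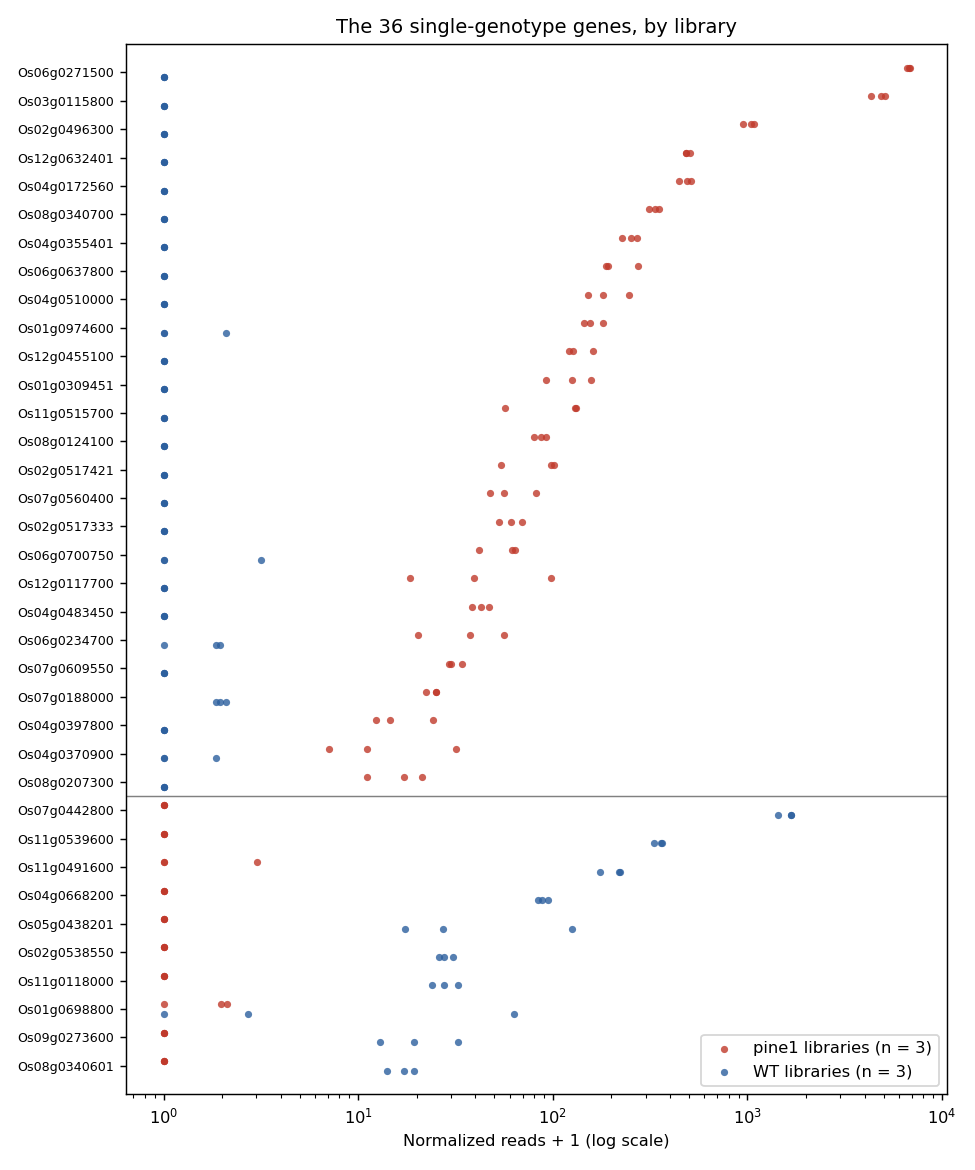
Normalized reads plus 1 (log scale) of each of the 36 single-genotype genes in the 3 pine1 libraries (red) and the 3 wild type libraries (blue), 1 point per library, with genes read in pine1 above the line and genes read in wild type below it, ordered by mean. The points of the low genotype sit at or next to 0 reads, and the 2 genotypes overlap only in Os01g0698800.

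In 35 of the 36 genes the values of pine1 and wild type libraries lay wholly apart, against 26.3% of all other tested genes, and the choice by means sets most of that count. In 29 of the 36 every library of the low genotype was at exactly 0 reads, 21 of the 26 read in pine1 and 8 of the 10 read in wild type. The other 7 genes held 13 reads of the low genotype between them, at most 3 in a gene, and they were spread over all libraries, with 1, 2 and 1 reads in pine1 replicates 1 to 3 and 4, 2 and 3 in wild type replicates 1 to 3. No single library thus supplied the reads of the low genotype. In the genotype that was read, 35 of the 36 genes reached 5 normalized reads in every library, and in 3 of them the highest library was more than 3 times the lowest. Pine1 replicate 3 was the lowest pine1 library in 15 of the 26 genes, while it was the lowest in 35.2% of all other tested genes. That replicate also had the fewest reads, and the part of depth in this was not tested.

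Values at the edge of the choice show where it fell. Just inside the limit of 15 stood Os08g0207300 at a mean of 15.5 in pine1 and 0 in wild type, Os04g0370900 at 15.7 in pine1 and 0.285 in wild type, and Os08g0340601 at 0 in pine1 and 15.9 in wild type. Just outside it stood Os02g0216400 at 0.752 in pine1 and 14.5 in wild type, Os07g0418500 at 0 in pine1 and 13.7 in wild type, and Os11g0114300 at 13.4 in pine1 and 0 in wild type. At the limit of 1 in the low genotype, OsAGO14 was just inside at 23.3 in pine1 and 0.969 in wild type, followed by Os06g0700750 at 54.7 in pine1 and 0.728 in wild type and Os01g0698800 at 0.698 in pine1 and 21.4 in wild type. Just outside were a leucine-rich repeat gene, Os02g0798800, at 47.3 in pine1 and 1.00 in wild type, and the NB-ARC immune receptor gene YR2 (Os11g0673600) at 121 in pine1 and 1.01 in wild type. The third was Os06g0559600, a hypothetical conserved gene, at 290.0 in pine1 and 1.14 in wild type. In the mean that each limit concerns, genes just outside stood near those just inside, because they were picked as the nearest. At the limit of 1, means in the genotype that was read reached 290.0 outside and 54.7 inside.

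The choice made no use of annotation. Of the 36 genes, 35 are in the authors' deposited table, which lists 7.16% of the 27397 genes, with absolute log2 fold changes there from 4.60 to 15.2. Of these 35, 23 are described as hypothetical or conserved hypothetical (65.7%), against 364 of the 1925 other genes of that table (18.9%). The 23 include OsFbox607 and Os11g0491600, to which MSU gives a class name. Non-coding transcripts made up 4 of the 35 (11.4%), against 22 of the 1925 others (1.14%). No locus in the MSU annotation, an independent rice gene catalogue, was listed for 20 of the 35 (57.1%), against 111 of the 1925 others (5.77%). A gene symbol was given for 2 of the 35, OsAGO14 and OsFbox607, against 802 of the 1925 others (41.7%). Both sets were selected by differences in these same libraries, so the shares describe 2 selected lists, which were not matched for read level.

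The endings of the identifiers also differed in their shares. An identifier that does not end in 00 was found for 12 of the 36 genes (33.3%), against 2221 of the 23999 other tested loci (9.25%). Of those 12, Os04g0172560, Os12g0632401 and Os04g0355401 were among the 7 highest genes of pine1, so such identifiers were not limited to weakly read genes.

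**Figure D2:**
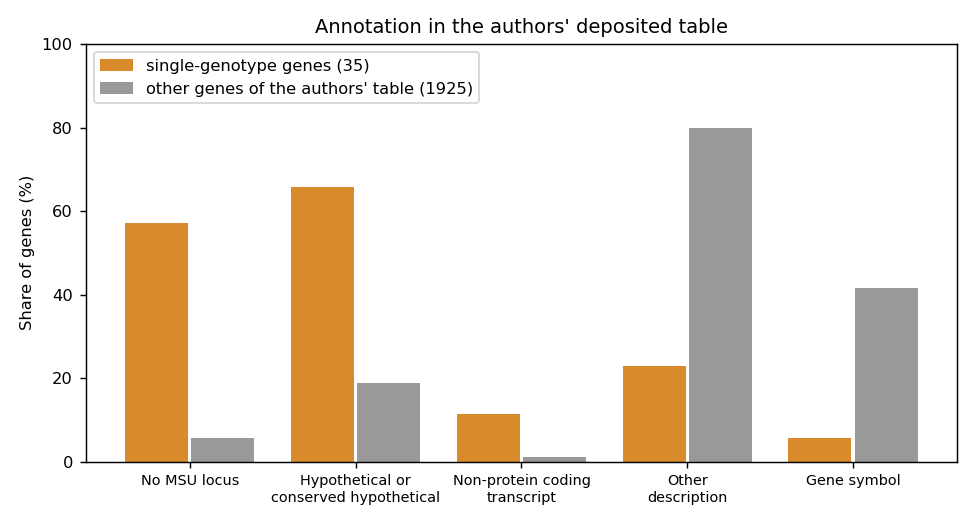
Share of genes (%) with each kind of annotation in the authors' deposited table, for the 35 single-genotype genes listed there (orange) and the 1925 other genes of that table (grey), with no error bars because these are counts of genes. No MSU locus was given for 57.1% of the single-genotype genes and 5.77% of the others, and a symbol for 5.71% and 41.7%.

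By locus identifier the 36 genes were spread over 11 of the 12 chromosomes, with none on chromosome 10. Chromosome 4 held 7, of which 6 were read in pine1 and 1 in wild type, a rate of 2.93 per 1000 loci in the table. Chromosome 11 held 4 beside the stretch set aside (2.49 per 1000), of which 1 was read in pine1 and 3 in wild type. Chromosomes 2, 6, 7 and 8 held 4 each, chromosomes 1 and 12 held 3 each, and chromosomes 3, 5 and 9 held 1 each. Chromosome 3, with 3508 loci, was the poorest of those with any, at 0.285 per 1000. No gene of wild type lay on chromosomes 3, 6, 10 or 12, where 8 genes were read in pine1.

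**Figure D3:**
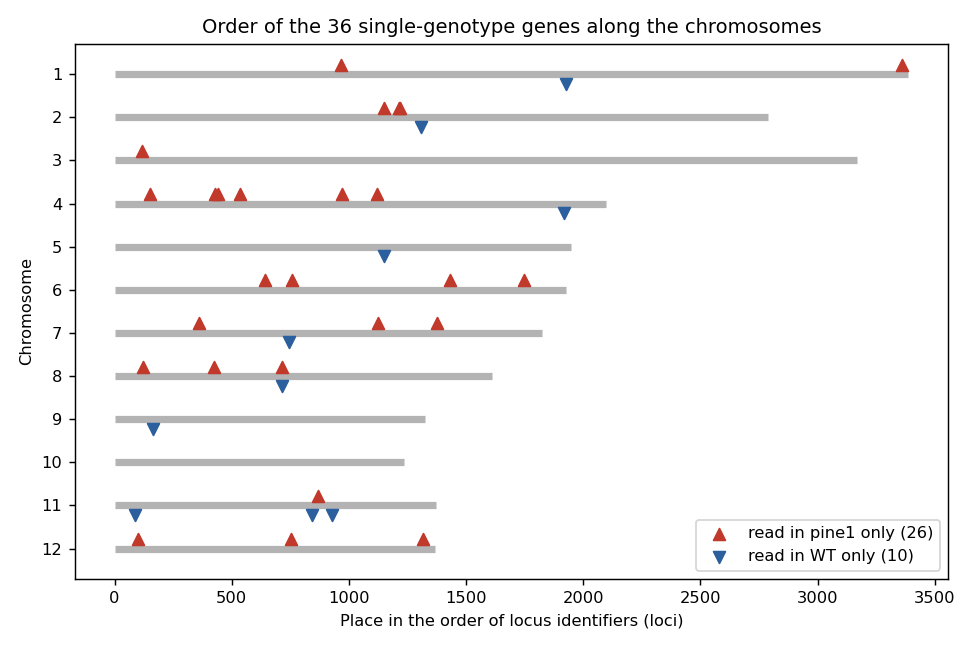
Place of each of the 36 single-genotype genes in the order of locus identifiers (horizontal axis, tested loci plus these genes) on the 12 chromosomes (vertical axis), with genes read in pine1 as red triangles above the grey line of loci and genes read in wild type as blue triangles below it. The genes are scattered, with none on chromosome 10 and 7 on chromosome 4.

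Only 2 pairs stood next to each other in that order. On chromosome 2, Os02g0517333 had 68.6, 59.6 and 51.9 normalized reads in pine1 and the non-coding transcript Os02g0517421 had 96.6, 100 and 53.0 in pine1, both at 0 in wild type. This pair was read in the same genotype and had 0 called loci among the 5 on each side. On chromosome 8 the pair was divided between the genotypes. Os08g0340601 had 0 in pine1 and 13.1, 18.3 and 16.2 in wild type, and the next locus, Os08g0340700, had 311, 334 and 348.5 in pine1 and 0 in wild type. Around this pair, too, 0 of the 5 tested loci on each side were called. The next closest genes, Os04g0355401 and Os04g0370900, were 14 places apart, and Os11g0491600 and Os11g0515700 were 27. Os12g0632401 lay 56 places from PINE1 itself on chromosome 12. These places count only tested loci and the single-genotype genes, so other loci can lie between.

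The loci next to the 36 genes were taken by position, and their genotype difference was tested in the limma fit across all 24149 genes that passed a filter on low reads. Of the 36 genes, 34 passed that filter. Words such as next, just after and direct neighbour refer to the order of tested loci, and untested loci may lie between. With them included, 6.46% of the tested genes were called. The nearest 5 tested loci on each side came to 340 distinct loci, of which 47 (13.8%) were called at an adjusted p under 0.05, 26 higher and 21 lower in pine1. Among all 24115 other tested genes 6.32% were called, 3.92% higher and 2.41% lower. Calls of at least 2-fold made up 22 of the 340 (6.47%), against 2.27% of the others. The median absolute log2 fold change was 0.17 over the neighbours and 0.12 over the others, and genotype values without overlap were found in 35.9% of the neighbours and 26.3% of the others. These shares carry no test of their own, because neighbouring loci are not independent of one another.

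Loci beside other changed genes give a second reading. The loci within 5 places of the 1507 other called genes were called in 7.43%, and those within 5 places of the 535 such genes with at least a 2-fold change in 8.20%. Without wild type replicate 3 the neighbours were called in 8.82%, against 4.12% of the others, and without wild type replicate 1 in 9.12%, against 3.27%. Of the very nearest tested loci, 17 of 68 (25.0%) were called, a window chosen after the data were examined. These 17 were divided, 8 changing in the direction of the single-genotype gene beside them and 9 in the other direction. In all 340, 28 calls went the same way and 19 the other. Near genes read in pine1, 21 loci rose and 14 fell among 240, and near genes read in wild type, 5 rose and 7 fell among 100. Loci on both sides of the chromosome 8 pair, none of them called, were counted with its wild type gene, Os08g0340601.

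**Figure D4:**
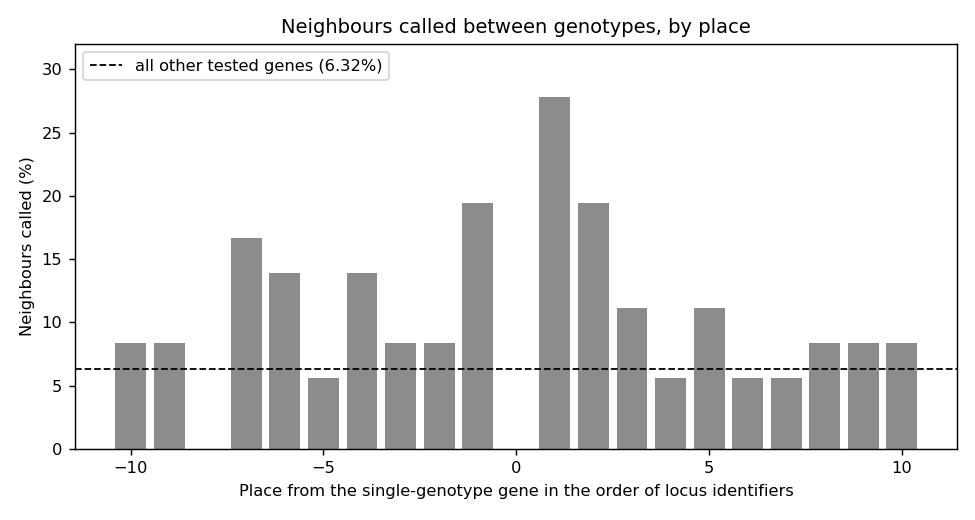
Share of neighbouring loci called between the genotypes (%, limma adjusted p under 0.05) at each place from 10 before to 10 after a single-genotype gene in the order of locus identifiers, with 36 gene and neighbour pairs at each place and the share of all other tested genes as a dashed line. The share was 19.4% at the place just before and 27.8% just after, against 6.32% for the other tested genes.

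The number of called loci differed widely from gene to gene. For 17 of the 36 genes none of the nearest 5 tested loci on each side was called, for 6 there was 1, and for 13 there were 2 or more. The 4 genes with the highest means had 0 to 2 called loci each, while the 2 with the most called loci, Os12g0632401 and OsFbox607, were also among the 7 with the highest means. Os06g0271500 had 0 called loci of 10. Os03g0115800 had 1, its direct neighbour Os03g0115700, a short-chain dehydrogenase gene, which averaged 319 ± 9.59 normalized reads in pine1 and 221 ± 7.87 in wild type (SD, n = 3 each; log2 fold change 0.53, SE 0.09, limma adjusted p = 0.011). Os07g0442800 had 2 and Os02g0496300 had 1.

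Os12g0632401 had the most, with 7 of its 10 neighbours called, 5 higher and 2 lower in pine1. The locus just before it, Os12g0632100, similar to an ARL2 G-protein, averaged 162 ± 16.8 normalized reads in pine1 and 43.5 ± 3.93 in wild type. The locus just after it, OsbHLH021 (Os12g0632600), a helix-loop-helix transcription factor gene by its description, averaged 141 ± 9.65 in pine1 and 39.5 ± 1.60 in wild type (SD, n = 3 each). The log2 rises were 1.87 and 1.81 (SE 0.16 each), both with a limma adjusted p of 2.6e-04. The next locus, a glyoxysomal malate dehydrogenase gene (Os12g0632700), fell by 0.56 (SE 0.05, adjusted p = 3.2e-04). Further out a receptor-like kinase gene (Os12g0632900) rose by 0.91 and a xylulose kinase gene (Os12g0633000) fell by 0.55.

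OsFbox607 had 6 called neighbours of 10. OsFbox608 (Os11g0539700), the F-box gene right after it, had 2.90, 5.05 and 1.13 normalized reads in pine1 and 139.8, 185.5 and 149 in wild type. It fell by 5.42 on the log2 scale (SE 0.38, limma adjusted p = 7.4e-05). The 2 loci after that rose in pine1. Os11g0539800, similar to Xaa-Pro aminopeptidase, an enzyme that trims peptides before proline, averaged 7791 ± 413 in pine1 and 4357 ± 194 in wild type (log2 fold change 0.84, adjusted p = 4.5e-05). Os11g0540100, also similar to a Xaa-Pro aminopeptidase, had 37.7, 37.4 and 68.8 in pine1 and 14.2, 5.77 and 12.8 in wild type, and its call was lost without pine1 replicate 3 (adjusted p up to 0.0614). On the other side, OsXTH2 (Os11g0539200), a xyloglucan endotransglycosylase that rejoins wall polymers, fell by 0.45 (limma adjusted p = 0.022), which did not pass without any one of 4 libraries (up to 0.0841).

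Other strong neighbours were nearly silent in one genotype themselves. Os08g0123833, a hypothetical protein gene just before the lectin gene Os08g0124100, had 2.90, 1.01 and 4.51 normalized reads in pine1 and 160.5, 218 and 229 in wild type. It fell by 5.84 on the log2 scale (SE 0.38, limma adjusted p = 4.1e-05) while the gene beside it was read in pine1 only. Os04g0174200, 3 places after Os04g0172560 and similar to OsRAD23, had 283, 284 and 100.4 in pine1, and 2.18, 3.84 and 2.56 in wild type, and rose by 5.73 (SE 0.41, adjusted p = 8.8e-05). Os07g0611700, a papain-type peptidase gene 3 places after Os07g0609550, had 45.4, 34.4 and 38.3 in pine1, and 0, 0.961 and 3.42 in wild type, and rose by 4.29 (SE 0.54, adjusted p = 0.0020). The first of these moved against its single-genotype gene, the others with it.

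Changes of middle size lay near 4 more. Os02g0494400, a TPR domain gene 5 places before Os02g0496300, had 659, 626 and 677 normalized reads in pine1 and 109, 106 and 109 in wild type, a rise of 2.59 on the log2 scale (SE 0.09, limma adjusted p = 8.0e-07). Both of the tested loci that come next after Os04g0355401 fell. The non-coding transcript Os04g0357200 fell by 1.73 (SE 0.12), and the helicase-like gene Os04g0357300, which MSU lists as a retrotransposon protein, had 89.9, 99.0 and 98.1 in pine1 and 569, 533 and 581 in wild type, a fall of 2.54 (SE 0.10, adjusted p = 1.7e-06). Os12g0451300 and Os12g0453500, before Os12g0455100, rose on the log2 scale, by 2.95 (SE 0.30) in the first and 2.42 (SE 0.34) in the second. Os11g0516400, a hypothetical conserved gene 3 places after Os11g0515700, rose by 2.09 (SE 0.22).

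Related genes on either side of Os06g0234700 moved in opposite directions. OsTBL52 (Os06g0234600), of a DUF231 family known for acetylating wall polymers in Arabidopsis, had 177, 132 and 229 normalized reads in pine1 and 29.5, 30.8 and 33.3 in wild type, and rose by 2.45 (SE 0.22, limma adjusted p = 2.8e-04). OsTBL45 (Os06g0234900) averaged 4.77 ± 2.01 in pine1 and 22.4 ± 7.76 in wild type (SD, n = 3 each), and its fall of 2.02 (adjusted p = 0.021) did not pass without any one of 4 libraries (up to 0.10). Around the histone gene Os01g0974600, 4 loci were called. OsMT2c (Os01g0974200), a metallothionein gene whose product binds metal ions, averaged 37353 ± 4743 in pine1 and 16794 ± 5586 in wild type (log2 fold change 1.19, SE 0.19, adjusted p = 0.0070). Os01g0974701, similar to a glycine-rich RNA-binding protein and next after the histone gene, fell by 1.19 (SE 0.10, adjusted p = 1.9e-04).

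Near the esterase gene Os11g0118000, Os11g0117900, also described as a hydrolase of the alpha/beta fold, averaged 6.40 ± 2.62 normalized reads in pine1 and 26.6 ± 0.87 in wild type (SD, n = 3 each), a fall of 1.97 on the log2 scale (SE 0.37, limma adjusted p = 0.014) that was lost without any 1 of the wild type libraries (up to 0.0639). The ends of chromosomes 11 and 12 are known to share a recent duplication, so reads of near-identical copies there may be divided between them in an unknown way. Os11g0118000 and Os12g0117700 carry low identifiers on these chromosomes, but whether either has such a copy was not checked.

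**Figure D5:**
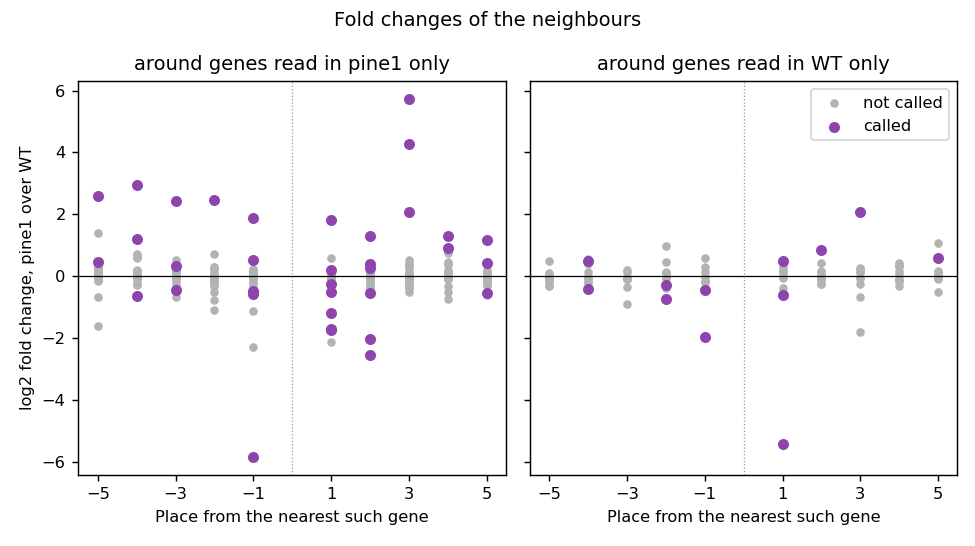
log2 fold change (pine1 over wild type) of each locus within 5 places of a single-genotype gene, plotted by its place from the nearest such gene, for genes read in pine1 (left) and in wild type (right), with called loci in purple and the others in grey. Called loci lie on both sides of 0, from -5.84 at Os08g0123833 to 5.73 at Os04g0174200. Loci on both sides of the chromosome 8 pair are plotted with its wild type gene, Os08g0340601.

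Gene classes to which single-genotype genes belong were followed through the authors' deposited table, which holds genes selected by a test on these libraries, so its counts are not independent evidence of direction. Single-genotype genes are left out of the counts, since their choice set their direction. Of the 1901 other genes of that table that were tested, 912 rose (47.97%) and 557 fell (29.3%) in pine1, with a median log2 fold change of 0.31. Of 61 tested mobile element genes, a class to which Os06g0271500 belongs, 33 rose (54.1%), 14 fell (23.0%) and 14 did not pass, with a median of 0.47. The largest rises were in Os07g0248800 and Os07g0248900, which lie within 5 places of none of the 36 genes, with log2 fold changes of 7.35 (SE 0.80) and 7.29 (SE 0.53). OsZFP6 (Os02g0552700), listed by MSU as a retrotransposon gene, fell by 3.85 (SE 0.31), and Os01g0811001 fell by 2.92 (SE 0.30). Over all tested genes 4.02% were called higher and 2.44% lower in pine1.

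Beside OsAGO14, the table held 4 tested silencing and chromatin genes. Of these, 1 passed upward, 1 passed downward and the other 2 missed the threshold. SDG714 (Os01g0927000), a SET domain protein of the histone methyltransferase type, averaged 1902 ± 29.4 normalized reads in pine1 and 1577 ± 26.3 in wild type (SD, n = 3 each), and rose by 0.27 (SE 0.05, limma adjusted p = 0.013). ROS1c (Os05g0445900), a glycosylase that removes methylated cytosine and is described as acting on the retrotransposon Tos17, averaged 1712 ± 111 in pine1 and 2172 ± 71.5 in wild type, a fall of 0.34 (SE 0.06, adjusted p = 0.011). The first call was lost without wild type replicate 1 or 2 (up to 0.0561) and the second without wild type replicate 3 (0.0513).

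Immune receptor genes and F-box genes moved in both directions. Of 44 tested immune receptor genes in the table, 17 rose (38.6%), 15 fell (34.1%) and 12 did not pass (median log2 fold change -0.40). YR2, just outside the limits, rose by 6.04 (SE 0.45), and Os11g0227800, inside the stretch set aside, by 4.41 (SE 0.34), while Os06g0621600 fell by 1.96 (SE 0.31) and Os09g0267800 fell by 1.57 (SE 0.17). Of 24 tested F-box genes, 12 rose (50%), 10 fell (41.7%) and 2 did not pass (median 0.29). Os02g0798800, listed by MSU as an F-box and leucine-rich repeat gene, rose by 4.70 (SE 0.47) and Os10g0567900 by 2.21 (SE 0.30). OsFbox608 fell as given above, and Os04g0371600, next after Os04g0370900, fell by 1.69 (SE 0.40, limma adjusted p = 0.041), a call lost without any one of 5 libraries (up to 0.134). Each class thus held called genes of both directions, as the 36 single-genotype genes did.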

How the data were processed

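RNA-seq of 3 pine1 and 3 wild type pools was analysed. The submitters' processing notes name FastQC, STAR, HTSeq, DESeq2 and build IRGSP-1.0, without versions or settings. A single sheet was deposited, with one table above another. The upper table, per the file headers, holds normalized reads. From its values, this deposited signal is gene counts over a size factor: every value is a whole multiple of 1 step per library, within 0.001, and the smallest sum of recovered reads is 10. The lower table, per the file headers, is the authors' DESeq2 comparison, with log2 fold changes, p-values and adjusted p-values. Its signs were wild type over pine1 in all 1961 genes checked. Gene names come from it alone.

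The genes and gene lists were chosen with earlier results of these data known. Genotypes were compared with limma, as the design set for normalized values, on log2(normalized reads + 1), with empirical Bayes, an intensity trend, Benjamini-Hochberg over the 24149 genes kept by edgeR's filterByExpr (minimum count 10), called under an adjusted p of 0.05. This scale understates fold changes of genes with few reads. Neighbours were the 5 nearest tested loci on each side by locus identifier. Genes were named by rule: the 12 highest means per direction, members within 5 loci of each other, members with a description, the 10 called neighbours with the largest change, genes at the limits, and up to 2 called genes per direction of each list. The remaining neighbours and members named were chosen after their values were seen. The PINE1 and marker loci were written from memory. The fits were tested on simulated data. Alternatives were other pseudocounts, filters, scalings, windows and limits, edgeR and DESeq2 on recovered reads, a replicate block, and leaving out each library. Software comprised limma 3.58.1, DESeq2 1.42.0 and edgeR 4.0.16 under R 4.3.3, with scipy 1.17.1, pandas 2.3.3, matplotlib 3.10.9 and numpy 2.4.6 under Python 3.11.15.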

Additional observations from a re-analysis of the deposited data

How the results depend on the processing

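The number of single-genotype genes stayed within 1.5 times of 36 under all 12 alternatives, from 26 when every library had to pass the limits to 52 with a low mean of up to 2, and from 35 to 45 with 1 library left out. The share of neighbours called, 13.8%, was between 13.5% and 15.3% under the other pseudocounts, filters, scalings and tools. It was 16.7% with 3 and 11.4% with 10 loci on each side, and 25.0% for the nearest locus alone. With 1 library left out it ran from 8.82% to 10.6%. It was between 1.81 and 3.95 times that of the other tested genes in every alternative. Called genes in all numbered 1559, and from 836 to 1310 with 1 library left out (836 without wild type replicate 1, 987 without replicate 2, 1039 without replicate 3), where fewer samples are tested; recovered reads gave 1568 with edgeR and 1976 with DESeq2. The replicate block gave 1994 calls and 15.6% of neighbours. Deviations of libraries with the same replicate number correlated at 0.055, 0.022 and 0.134. Those of libraries with unlike numbers correlated at -0.241 to 0.161, so whether replicate numbers pair the samples was not settled. Of the 47 called neighbours, 24 were called in every alternative and 23 were lost in at least 1. None of the named genes reversed. With reads of 0 to 3 in the low genotype, depth limits how far below the other genotype it lies.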
